A study of Mus musculus with 9 samples.

Results

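The subject is a set of 33 genes of megakaryocytes and platelets, read in sorted mouse hematopoietic stem cells (HSCs). The genes were listed by name, as platelet receptors, granule genes and megakaryocyte factors, and each was represented by the probe set with a single gene symbol that had the highest mean over the 9 arrays. By this rule 30 of the 33 could be read, among 22180 genes in all; Gp1ba, Gp1bb and Ptgs1 were not analysed here. The cells came from mice aged 6 to 8 months that had been given 5 doses of poly(I:C), an RNA mimic that raises interferon and through it turns on the Mx1-Cre recombinase in blood cells and other interferon-responsive cells. The 3 genotypes were KO (Bcl11a fl/fl with Mx1-Cre), Het (Bcl11a fl/wt with Mx1-Cre) and WT (Bcl11a fl/fl without Cre), with 3 biological replicates and so 3 arrays each. The interferon inducer was therefore shared by all 3 genotypes, and KO and WT mice were both fl/fl, whereas Het mice were fl/wt. Comparisons with Het cells thus differ in the number of floxed alleles. Cre was carried by KO and Het mice but not by WT mice. Effects of Cre and of Bcl11a deletion on a difference from WT therefore cannot be told apart. The gate took lineage-negative, Sca-1-positive and Kit-positive cells that lacked CD48 and Flt3 and carried CD150, either YFP-positive or YFP-negative; the labels do not tie either YFP fraction to an array.

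Megakaryocytes are the bone marrow cells that shed platelets, and they arise from HSCs through progenitors that respond to thrombopoietin. Platelets stick to injured vessel walls through von Willebrand factor and the glycoprotein Ib-IX-V complex, are activated by thrombin, ADP, ATP and collagen receptors, clump through the integrin of Itga2b and Itgb3, and release stored granules. A share of mouse HSCs already carries transcripts of this programme, is marked by Vwf and tends to replenish platelets; such cells are known to become more common with age. BCL11A is a zinc finger repressor, best known for silencing fetal globin genes and for its need in lymphoid development.

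All values are log2 expression made with RMA, a method that corrects background, normalizes arrays to each other and sums up the probes of a gene; a difference of 1 is a 2-fold change. Probe sets differ in how brightly they read, so genotypes are compared within each gene. The background level used below is an exception, as it sets each gene against other genes, so its calls carry this limit. Bcl11a itself read 7.82, 7.90 and 8.66 on the KO arrays, 8.34, 8.37 and 8.89 on the Het arrays and 8.73, 8.81 and 8.38 on the WT arrays. The array labelled KO replicate 3 thus read inside the WT range, and the labels do not say which exons were removed or probed, so its values do not check the deletion. Xist and Y-linked genes placed female mice at 1 of 3 KO, 1 of 3 Het and 2 of 3 WT arrays; KO replicate 3, Het replicate 3, WT replicate 1 and WT replicate 3 were the female ones. WT replicate 1 had the narrowest spread of values (interquartile range 2.22, against 2.39 to 2.83 on the other 8 arrays) and no correlation above 0.870 with any other array. Of the gate genes, Kit read above background on 9 of 9 arrays and Slamf1 (CD150) on 7, with WT replicates 1 and 2 the exceptions at 4.64 and 4.67, while Cd48 and Flt3 each did so on 1. Slamf1 differed from WT by 1.63 in KO and 1.75 in Het cells (limma adjusted p = 0.543 and 0.889). Flt3, mostly at background, differed by −1.06 and −0.79 (limma adjusted p = 0.475 and 0.989). Kit differed by 0.39 and 0.27 and Cd48 by −0.11 and 0.07. For these gate genes the KO and Het arrays each overlapped the WT arrays.

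Promoter sequences of 4 members frame the differences described below. F2rl2, Zfpm1 and Ppbp are shown because their arrays separated KO from WT without overlap, and Pf4 because it is the neighbour of Ppbp and read differently. Each window holds 300 bases, most of them upstream of the start of the gene (RefSeq, GRCm38.p6, 5′ to 3′ on the strand of the gene). They lie at chr13:95696670-95696969 for F2rl2, chr8:122281891-122282190 for Zfpm1, chr5:90768268-90768567 for Ppbp and chr5:90772185-90772484 for Pf4, all on the plus strand. Capitals mark TGACCA, a motif known to be bound by BCL11A, AGATAA, bound by GATA factors, and AGGAAG, bound by ETS factors, each on either strand.
F2rl2: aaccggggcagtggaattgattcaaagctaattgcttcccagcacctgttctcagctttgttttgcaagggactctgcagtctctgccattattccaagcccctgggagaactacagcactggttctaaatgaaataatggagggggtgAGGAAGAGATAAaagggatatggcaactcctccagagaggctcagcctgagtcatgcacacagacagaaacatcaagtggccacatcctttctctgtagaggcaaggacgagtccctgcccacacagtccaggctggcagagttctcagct
Zfpm1: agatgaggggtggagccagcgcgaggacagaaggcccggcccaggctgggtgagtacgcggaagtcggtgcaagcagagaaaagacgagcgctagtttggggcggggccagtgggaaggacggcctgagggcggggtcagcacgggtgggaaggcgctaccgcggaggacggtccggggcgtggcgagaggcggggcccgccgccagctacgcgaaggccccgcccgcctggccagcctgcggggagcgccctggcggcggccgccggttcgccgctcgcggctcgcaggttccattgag
Ppbp: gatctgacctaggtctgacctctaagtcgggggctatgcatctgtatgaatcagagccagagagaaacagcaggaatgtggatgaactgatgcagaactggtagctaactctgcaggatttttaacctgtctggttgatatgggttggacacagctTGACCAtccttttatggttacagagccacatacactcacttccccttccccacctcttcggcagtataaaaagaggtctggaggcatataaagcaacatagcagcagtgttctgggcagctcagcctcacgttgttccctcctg
Pf4: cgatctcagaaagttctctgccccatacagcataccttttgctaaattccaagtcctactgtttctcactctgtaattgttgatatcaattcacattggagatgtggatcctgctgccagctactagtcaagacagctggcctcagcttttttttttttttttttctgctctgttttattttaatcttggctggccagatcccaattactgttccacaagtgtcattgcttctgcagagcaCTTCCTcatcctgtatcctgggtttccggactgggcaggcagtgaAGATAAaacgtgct

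In the F2rl2 window an ETS match is followed directly by a GATA match, and the Pf4 window holds 1 of each. The Ppbp window holds 1 TGACCA match and no match to the other motifs, and the Zfpm1 window held none of the 3. RefSeq windows were at hand for 28 of the 33 members, Vwf not among them. TGACCA was found in 4 of the 28 (14.3%, against 13.6% of all 32851 promoter windows), in the windows of Gfi1b, Gp1bb, P2ry1 and Ppbp. AGATAA was found in 7 (25%, against 11.2% of all) and AGGAAG in 15 (53.6%, against 35.4% of all). These shares describe letters in short windows and were not tested.

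To ask which members HSCs express at all, each array was given a background level, the 95th percentile of 64 genes of other organs such as liver, muscle, retina and testis; it lay between 4.65 and 5.45. By this measure 16 of the 30 members (53.3%, against 19.4% of all genes measured) read above background on all 9 arrays. They were the surface genes Itga2b, Gp9, F2r, F2rl2, F2rl3 and Cd9, the granule and secretion genes Pf4, Mmrn1, Nbeal2 and Cd63, the signalling genes Plek, Rap1b and Fermt3, and the transcription factors Nfe2, Zfpm1 and Gfi1b. The share was not tested, as the members were chosen with earlier results of these data known. On no array was a reading above background seen for 4 members: Clec1b, the podoplanin receptor CLEC-2; Thbs1, the granule protein thrombospondin; Alox12, the platelet lipoxygenase; and Tubb1, the tubulin of the platelet rim. Clec1b read 2.38 to 3.62 and Tubb1 2.80 to 3.79 over the 9 arrays.

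The other 10 members crossed the level on some arrays only. Vwf and Itgb3 did so on 8 of 9, P2rx1, the ATP-gated channel, on 6, Gp5 on 5, Treml1 and P2ry1 on 3, Ppbp on 2, and Gp6, P2ry12 and Rab27b on 1 each. The platelet receptors for collagen (Gp6) and ADP (P2ry12 and P2ry1) thus read near background in most HSC samples. Gata1, the main transcription factor of megakaryocytes and red cells, was above background on no array (3.62 to 4.53), whereas its cofactor gene Zfpm1 was on all. All 3 arrays were above background for 18 members in KO, the same 18 in Het and 16 in WT cells; Vwf and Itgb3 made the difference, Vwf at 5.12 on WT replicate 1 (level 5.45) and Itgb3 at 5.09 on WT replicate 2 (level 5.10). With the 90th or 99th percentile as the level, 19 or 11 members passed on all arrays.

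**Figure D1:**
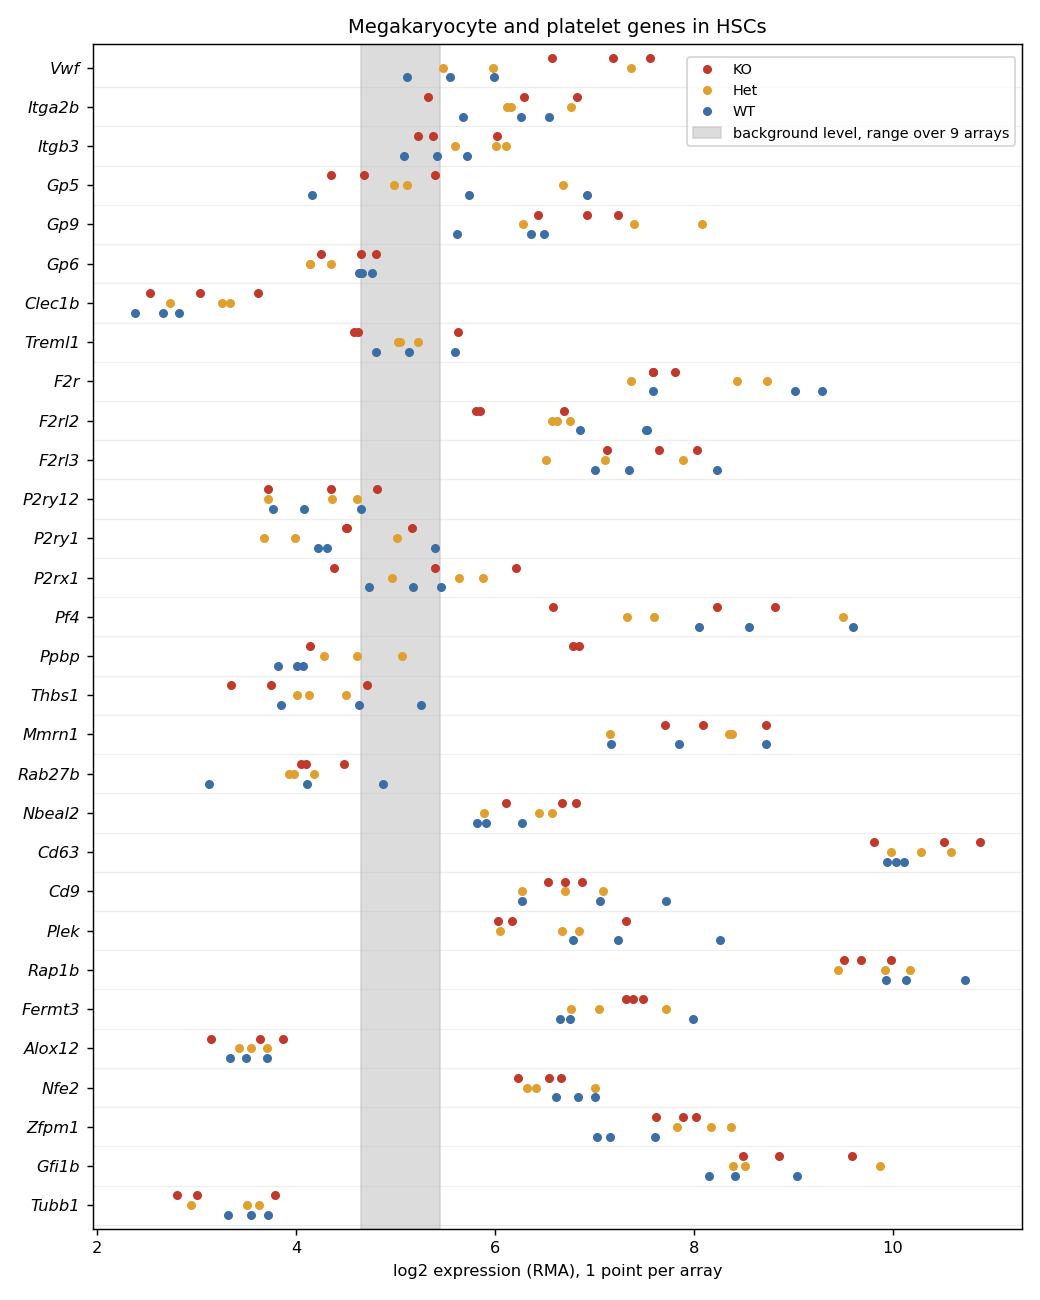
Log2 expression of the 30 members that could be read, 1 point per array (KO above Het above WT in each row), with the range of the background level over the 9 arrays (4.65 to 5.45) in grey. Cd63, Rap1b, Gfi1b, Mmrn1 and Zfpm1 lie right of the band on every array, while Clec1b, Alox12 and Tubb1 lie left of it on every array.

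KO cells set against WT cells show the programme after targeting of both Bcl11a copies. No member passed the test over all genes (limma, Benjamini-Hochberg adjusted p under 0.05; 0 of 29 tested members, where 0.0421% of the 16636 genes tested passed), and the smallest adjusted p was 0.312, for F2rl2. The members went both ways: 17 of 30 read higher and 13 lower in KO cells, with a median difference of 0.08 beside a median of −0.08 over all genes measured. At an unadjusted p under 0.05, 3 members were higher (Vwf, Ppbp and Zfpm1; 5.4% of all genes tested) and 1 was lower (F2rl2; 2.81% of all). The same 4 were the members whose KO and WT arrays did not overlap, 3 of 29 higher (6.51% of all genes tested) and 1 of 29 lower (7.32% of all). For each of the 4 the exact two-sided permutation p was 0.1, the smallest that 3 arrays against 3 allow. Without WT replicate 1, the array that stood apart, the differences were 1.337 for Vwf, 2.012 for Ppbp, 0.458 for Zfpm1 and −1.07 for F2rl2. Without KO replicate 3, whose Bcl11a reading lay in the WT range, they were 1.822, 1.498, 0.688 and −1.048 in the same order. The counts at an unadjusted p under 0.05 were then 2 higher and 2 lower without WT replicate 1 (3.53% and 2.13% of all genes tested), and 5 and 3 without KO replicate 3 (6.37% and 2.98%). WT replicates 1 and 2, the arrays low for Slamf1, held the lowest Vwf readings of WT cells. Het replicates 1 and 2, with Slamf1 at 6.61 and 7.32, also read Vwf in the WT range, at 5.98 and 5.48. The part of that gate marker was not tested. In bulk samples such as these, more cells that express a gene and more RNA of it per cell cannot be told apart.

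Among the adhesion receptors and their ligand, Vwf, the plasma and granule protein that tethers platelets to collagen, stood out. It read 7.56, 7.19 and 6.57 on the KO arrays, 5.98, 5.48 and 7.37 on the Het arrays and 5.12, 5.55 and 5.99 on the WT arrays. Every KO array was above every WT array, and Het replicate 3 alone among the Het arrays read in the KO range. The KO minus WT difference was 1.55 (SE 0.467, 2.93-fold, adjusted p = 0.449). Among females (1 KO array, 2 WT arrays) it was 1.02 and among males (2 KO arrays, 1 WT array) 1.83. A fit that included each array's interquartile range gave 0.938. The Het minus WT difference was 0.72 (SE 0.467, adjusted p = 0.992), but 0.177 without Het replicate 3.

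Itga2b, the integrin chain CD41 of megakaryocytes and of platelet-primed stem cells, did not follow Vwf. It read 6.29, 6.83 and 5.33 on the KO arrays, 6.12, 6.16 and 6.77 on the Het arrays and 5.68, 6.26 and 6.54 on the WT arrays, so that the 3 groups overlapped. The KO minus WT difference was −0.01 (SE 0.391), and without KO replicate 3, its lowest array, 0.40. Its partner Itgb3 read 5.23, 6.02 and 5.38 on the KO arrays, 6.01, 6.11 and 5.60 on the Het arrays and 5.72, 5.09 and 5.42 on the WT arrays. Here too the groups overlapped, with differences from WT of 0.13 (SE 0.285) in KO and 0.50 in Het cells.

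Gp9, a chain of the receptor complex for von Willebrand factor, read 7.24, 6.93 and 6.43 on the KO arrays, 6.28, 8.08 and 7.40 on the Het arrays and 5.62, 6.49 and 6.36 on the WT arrays. Het cells held the highest array and WT cells the lowest, with overlap between the groups. The difference from WT was 0.71 in KO cells (SE 0.440, adjusted p = 0.681; 0.442 without WT replicate 1) and 1.10 in Het cells (unadjusted p = 0.0313, adjusted p = 0.972; 0.683 without Het replicate 2, its highest array). Gp5, another chain of that complex, averaged 4.81 ± 0.537 in KO, 5.60 ± 0.946 in Het and 5.61 ± 1.39 in WT cells (SD, n = 3 each), the widest WT spread of any member read. Gp6 differed from WT by −0.12 in KO and by −0.47 in Het cells, where all 3 Het arrays (4.14, 4.35 and 4.14) lay below the WT arrays (4.63, 4.66 and 4.76), near the background level. Treml1, a granule-stored receptor, differed by −0.24 and −0.08 in KO and Het cells and Clec1b, left out of the tests for its low mean, by 0.44 and 0.49.

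Of the receptors for soluble activators, F2rl2 read lower in KO cells. This gene encodes protease-activated receptor PAR3, which on mouse platelets serves as a cofactor for thrombin's action on PAR4. It read 6.70, 5.81 and 5.85 on the KO arrays, 6.62, 6.76 and 6.57 on the Het arrays and 7.53, 6.86 and 7.52 on the WT arrays. Both KO and Het arrays lay wholly below the WT arrays, with KO replicate 1 level with the Het arrays. The KO minus WT difference was −1.18 (SE 0.299, adjusted p = 0.312), or −1.68 among females and −0.61 among males, and stayed between −1.47 and −1.03 when any single array was left out. In Het cells it was −0.65 (unadjusted p = 0.0528).

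PAR4 itself, encoded by F2rl3, showed no such shift, with a KO minus WT difference of 0.07 and a Het minus WT difference of −0.36. F2r, the gene of PAR1 and a neighbour of F2rl2, read 7.81, 7.59 and 7.59 on the KO arrays, 8.43, 7.37 and 8.74 on the Het arrays and 7.59, 9.29 and 9.02 on the WT arrays. Its KO arrays lay within a narrow range and 2 of the 3 WT arrays far above them, yet WT replicate 1 tied with KO replicates 2 and 3 (difference −0.97, SE 0.462, unadjusted p = 0.0615). It was −1.49 without WT replicate 1 and −0.64 without WT replicate 2. The receptors for ADP and ATP, P2ry12, P2ry1 and P2rx1, differed by 0.13, 0.08 and 0.21 in KO and by 0.06, −0.41 and 0.37 in Het cells.

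Among the granule genes, Ppbp, the chemokine precursor of platelet alpha granules, had the largest KO minus WT difference of the members read. It read 6.79, 4.14 and 6.85 on the KO arrays, 4.28, 5.07 and 4.61 on the Het arrays and 4.07, 3.82 and 4.01 on the WT arrays. Only KO replicates 1 and 3 were above background, and KO replicate 2 read barely above the WT arrays. The difference of 1.96 (SE 0.608, 3.89-fold, adjusted p = 0.463) therefore starts from a WT level at background, so the fold has no firm base. It was 2.81 among females and 1.64 among males. Without KO replicate 2 it was 2.85 and passed over all genes (limma adjusted p = 0.0309), the sole call for a member in the settings tried; without KO replicate 1 or 3 it was 1.528 or 1.498.

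Pf4, platelet factor 4, lies next to Ppbp and is likewise a chemokine of alpha granules. It read 8.82, 6.58 and 8.23 on the KO arrays, 7.60, 7.33 and 9.50 on the Het arrays and 8.56, 8.05 and 9.60 on the WT arrays. The groups overlapped, and the differences from WT were −0.86 (SE 0.688) in KO and −0.59 in Het cells. Among females they were −0.85 and 0.42, among males −0.35 and −0.59, so the Het difference had no settled sign. Over single arrays left out, the KO difference ran from −1.332 to −0.212 and the Het difference from −1.272 to −0.162, and with sex as a term they were −0.461 and −0.194. KO replicate 2 was the lowest of the KO arrays for both genes, but the 2 highest Pf4 arrays, Het replicate 3 and WT replicate 3, were at background for Ppbp.

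The remaining granule genes differed by less. Nbeal2, which granule formation needs, read 0.54 higher in KO cells (unadjusted p = 0.0838) and 0.30 higher in Het cells; the KO difference was 0.02 among females and 0.93 among males. Cd63, a granule membrane tetraspanin that other cells also carry in lysosomes, averaged 10.40 ± 0.544 in KO, 10.28 ± 0.305 in Het and 10.03 ± 0.085 in WT cells. Mmrn1, the granule protein multimerin, differed by 0.26 in KO and 0.05 in Het cells, Rab27b, a secretion GTPase, by 0.17 and −0.01, and Thbs1 by −0.64 and −0.37 at background levels. Cd9 differed by −0.31 in KO cells by its brighter probe set and by 0.54 by a dimmer one, so no direction is given for it.

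Of the signalling genes, Plek, the protein kinase C substrate pleckstrin, read 6.03, 6.17 and 7.32 on the KO arrays, 6.85, 6.05 and 6.68 on the Het arrays and 7.24, 6.79 and 8.26 on the WT arrays. KO replicate 3 alone kept KO and WT from separating. The differences from WT were −0.92 in KO (SE 0.445, adjusted p = 0.628) and −0.90 in Het cells. Without WT replicate 3, the highest array, they were −0.508 and −0.488. Rap1b, the GTPase that switches on platelet integrins, differed by −0.54 in KO and −0.42 in Het cells, with −0.54 and −0.62 from a second probe set. Fermt3, kindlin-3, differed by 0.27 and 0.05, and Alox12, the one lipid mediator enzyme read, by 0.04 and 0.05.

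The transcription factors split. Zfpm1, which encodes FOG1, the cofactor through which GATA1 drives megakaryocyte genes, read 8.02, 7.89 and 7.62 on the KO arrays, 7.83, 8.17 and 8.37 on the Het arrays and 7.03, 7.61 and 7.16 on the WT arrays. All 6 KO and Het arrays lay above the WT arrays, though KO replicate 3 exceeded WT replicate 2 by very little. The difference from WT was 0.58 in KO cells (SE 0.251, 1.49-fold, adjusted p = 0.592) and 0.86 in Het cells (1.81-fold, adjusted p = 0.758). In KO cells it was 0.52 among females and 0.34 among males, and in Het cells 1.27 and 0.39. Nfe2, needed for platelet shedding, differed by −0.34 in KO and −0.24 in Het cells. Gfi1b, a transcriptional repressor that acts within the megakaryocyte and red cell lineages, differed by 0.45 and 0.39. Tubb1, a target of NF-E2, differed by −0.33 and −0.17 at background.

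**Figure D2:**
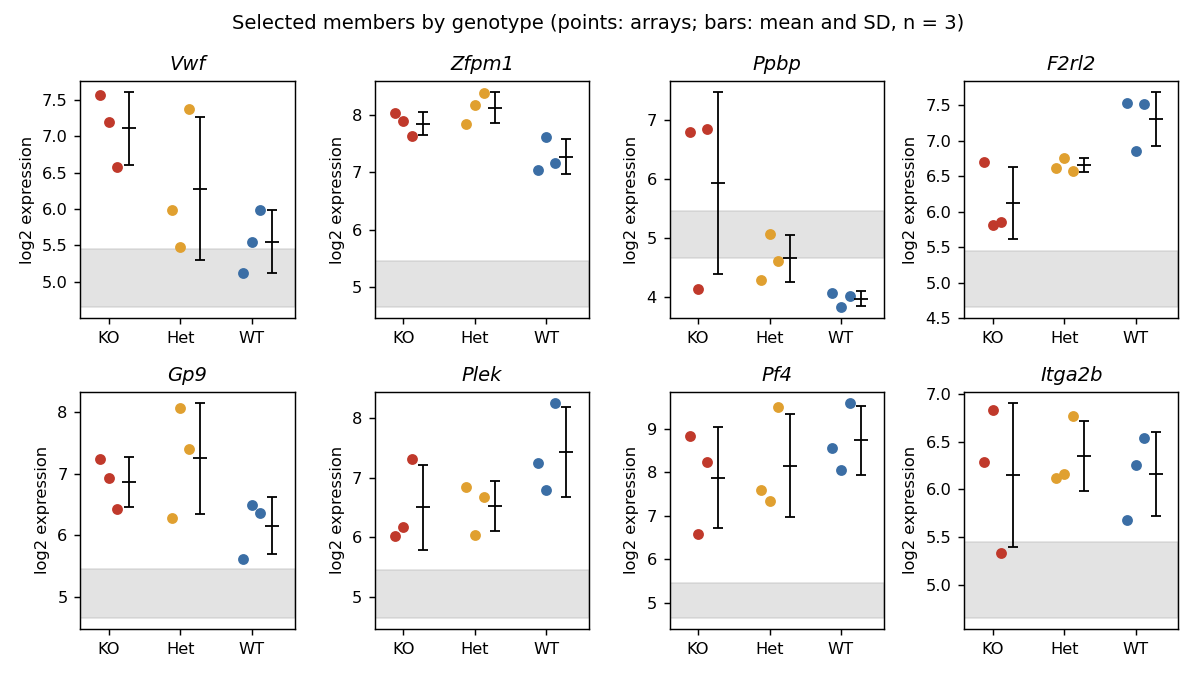
Log2 expression of 8 members by genotype, with 1 point per array, the mean and SD of 3 arrays beside it, and the range of the background level in grey where it falls in the panel; the vertical scales differ. KO and WT arrays do not overlap for Vwf, Zfpm1, Ppbp and F2rl2, and they overlap for Gp9, Plek, Pf4 and Itga2b.

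Het cells, with 1 copy targeted, were set against WT cells in the same fit. No member was called with limma (0 of 29, where 0% of all genes tested passed; smallest adjusted p 0.758, for Zfpm1). The split was even, 15 of 30 higher and 15 lower, with a median difference of 0.02 beside −0.03 over all genes measured. At an unadjusted p under 0.05, Zfpm1 and Gp9 were higher and no member was lower (3.12% and 1.77% of all genes tested). The Het arrays lay wholly above the WT arrays for Zfpm1 and Ppbp (4.51% of all genes) and wholly below for F2rl2 and Gp6 (3.9% of all), each with an exact two-sided permutation p of 0.1.

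KO and Het cells were then set against each other to see whether the second copy made a difference. No member was called with limma (0 of 29, where 0% of all genes passed; smallest adjusted p 0.998), none had an unadjusted p under 0.05 (4.56% of all genes did), and for no member did the arrays separate (9.82% of all genes). The largest differences were 1.27 for Ppbp, 0.83 for Vwf and −0.79 for Gp5. Single arrays moved them by much: Ppbp ran from 0.812 to 2.167 and Vwf from 0.432 to 1.377 over single arrays left out, and Gp5 was −0.25 without Het replicate 3. With the mean of Het and KO set against WT, again none was called (0% of all genes), and 6 members had an unadjusted p under 0.05 (7.21% of all genes): Vwf (1.14), Ppbp (1.32), Gp9 (0.90) and Zfpm1 (0.72) higher, and F2rl2 (−0.92) and Plek (−0.91) lower. A joint F test over the 3 genotypes called none (0% of all genes), and gave Vwf, Ppbp, F2rl2 and Zfpm1 an unadjusted p under 0.05 (5.91% of all genes). These comparisons share arrays, so their counts are not independent of each other.

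**Figure D3:**
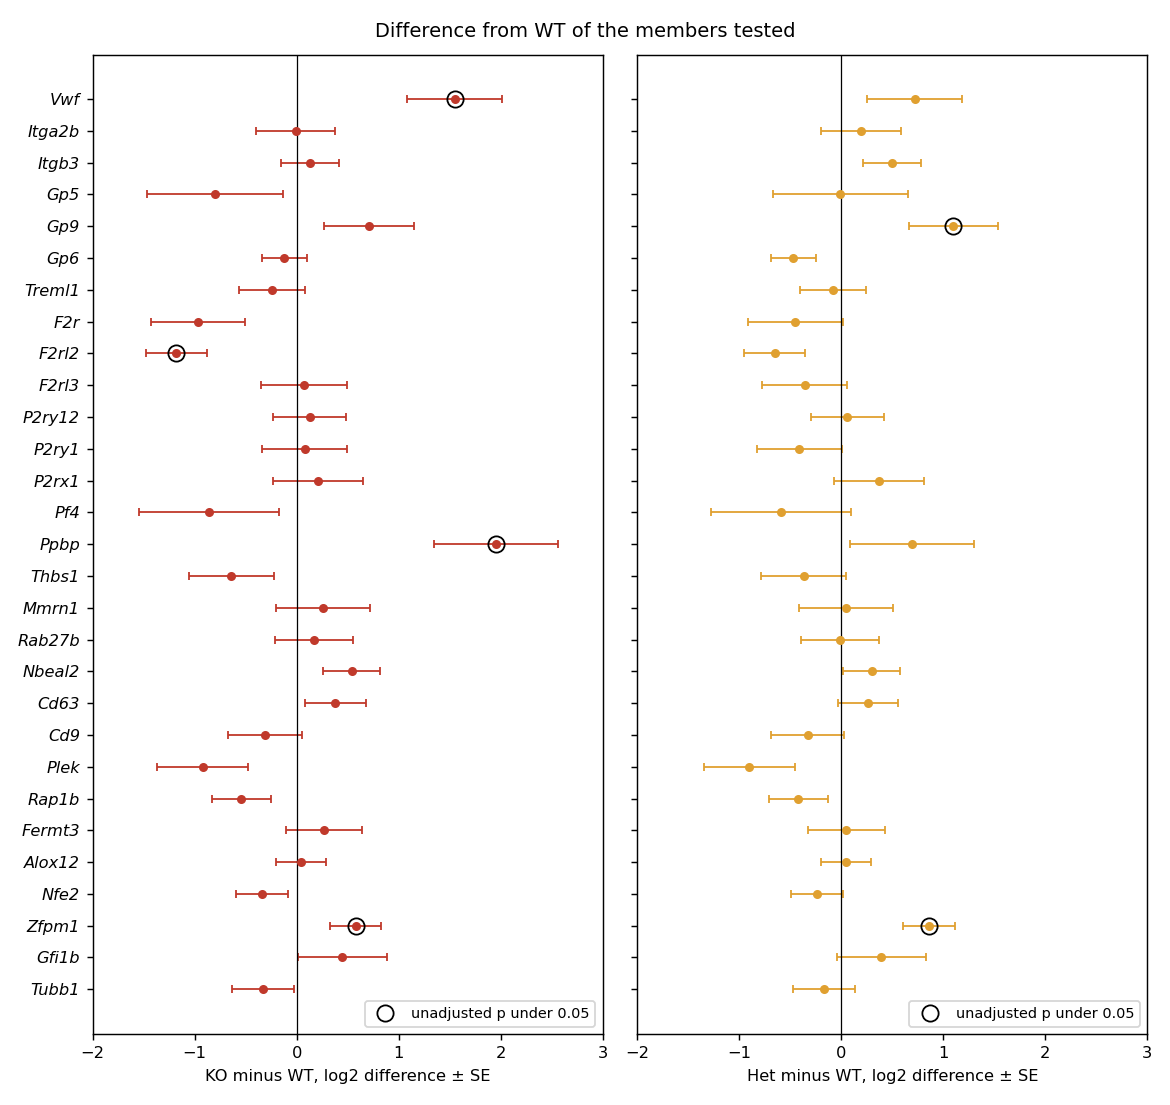
Log2 difference from WT with its standard error (limma) for the 29 members tested, KO minus WT on the left and Het minus WT on the right; rings mark an unadjusted p under 0.05. Rings lie on Vwf, F2rl2, Ppbp and Zfpm1 for KO and on Gp9 and Zfpm1 for Het, and the other members scatter on both sides of 0.

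The members did not vary as a block. Over the 9 arrays the median of the 435 pairwise correlations was 0.02 (Pearson's r) and 0.04 (Spearman's rho), beside 0 over all pairs of genes tested; with genotype means taken out it was 0.06 and 0.05. These are descriptions over 9 arrays that share 1 amplification and normalization scheme. The array with the most members above their own mean was Het replicate 3 (21 of 30), and the one with the fewest was Het replicate 1 (10 of 30), both of 1 genotype. Het replicate 3 and WT replicate 3, both female, had the highest readings of Pf4 (9.50 and 9.60) and Gp5 (6.69 and 6.93), and also of Fermt3 (7.72 and 7.99) and Rap1b (10.17 and 10.73). Over all genes tested, the deviations of these 2 arrays from their genotype means correlated at 0.229, the highest value among the pairs of arrays from different genotypes. Other pairs of female arrays went both ways. KO replicate 3 gave −0.142 with Het replicate 3, −0.185 with WT replicate 3 and 0.196 with WT replicate 1. Het replicate 3 and WT replicate 1 gave −0.16. Het replicate 3 and WT replicate 3 also share a replicate number and had the 2 lowest background levels (4.65 and 4.7). The part of sex or of these traits was not tested.

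**Figure D4:**
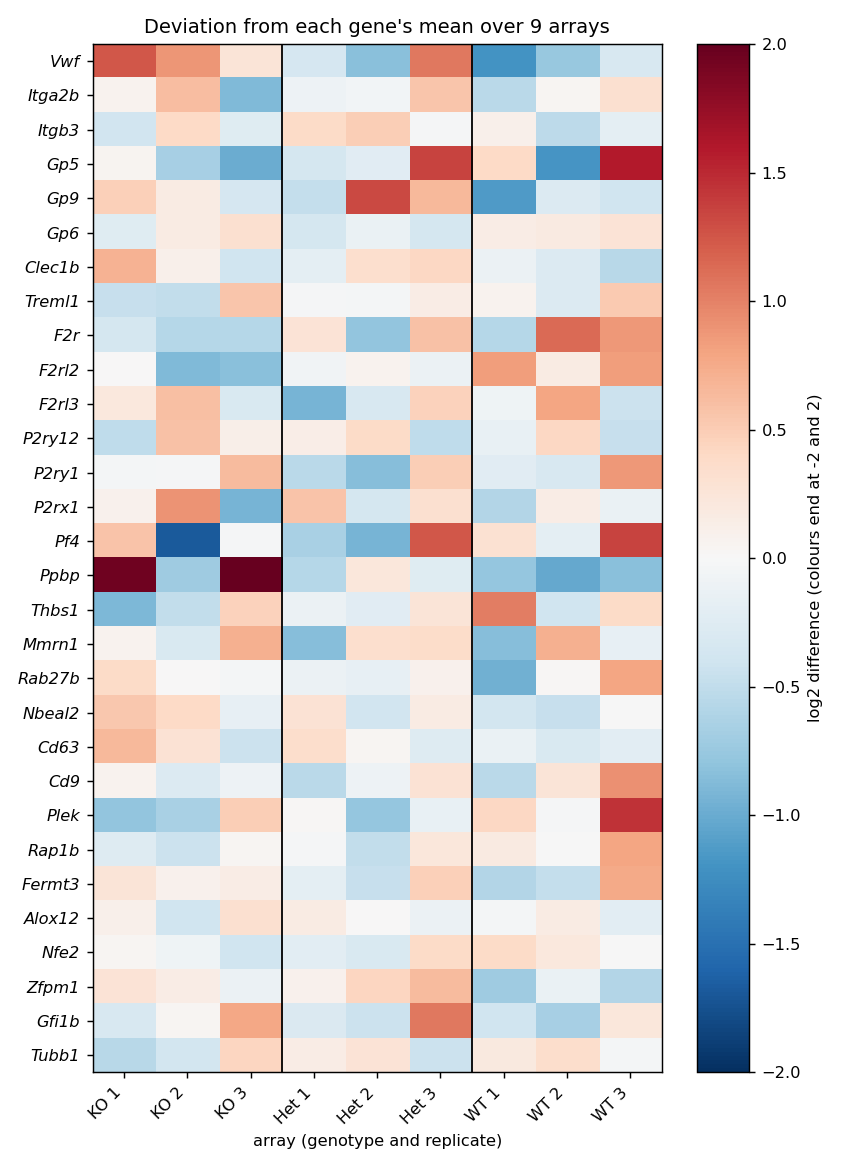
Each member's log2 deviation from its own mean over the 9 arrays (red above, blue below), with arrays in columns ordered KO, Het and WT. Ppbp is high on KO replicates 1 and 3, Vwf on the KO arrays and Het replicate 3, and Pf4 and Gp5 on Het replicate 3 and WT replicate 3.

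Other genes of the platelet pathway, taken from lists made with earlier results of these data known, were set beside the members; none passed over all genes. Their counts at an unadjusted p under 0.05 stand beside 5.4% of all genes higher and 2.81% lower in KO cells, and, since the lists were so chosen, support no direction. Of 21 further platelet receptors tested, 8 had an unadjusted p under 0.05 with KO higher (38.1%) and 0 with KO lower; without WT replicate 1 or without KO replicate 3 it was 6 and 0. Fcer1g, the signalling chain that pairs with the collagen receptor and also with immune receptors of myeloid cells, read 8.83, 8.22 and 8.40 on the KO arrays, 7.43, 7.67 and 8.11 on the Het arrays and 6.79, 6.84 and 6.41 on the WT arrays. The groups were graded, with KO above Het and Het above WT on every array, and the KO minus WT difference was 1.80 (SE 0.267, adjusted p = 0.0566). Selp, the granule adhesion receptor P-selectin, read 8.84, 8.92 and 7.92 on the KO arrays, 8.17, 8.24 and 8.71 on the Het arrays and 7.64, 7.40 and 6.09 on the WT arrays. KO and Het arrays both lay above the WT arrays, by 1.52 and 1.33 on average (adjusted p = 0.410 and 0.872), or 1.04 and 0.85 without WT replicate 3.

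Platelet signalling genes gave 5 of 34 with an unadjusted p under 0.05 and KO higher (14.7%), and 0 with KO lower. Plcg2, the phospholipase downstream of the collagen receptor, was 0.82 higher in KO and 0.63 higher in Het cells, and Stim1, the calcium store sensor, read 1.28 and 0.78 higher, or 0.81 and 0.31 without WT replicate 1. Among megakaryocyte transcription factors the counts were 4 (21.1%) and 0 of 19, and 2 and 0 without WT replicate 1. Mef2c read 0.73 higher in KO cells, Lmo2 0.87 and Erg 0.85, and Erg 0.46 higher without WT replicate 1. Fli1, Runx1 and Meis1 differed by 0.41, −0.08 and 0.48 (Meis1 by 0.17 without WT replicate 1 and Fli1 by 0.13 without KO replicate 1). Gata2 differed by 1.04, and by 0.01 without WT replicate 1, which read 5.13 against 8.22 and 8.17 on the other WT arrays. Genes of thrombopoietin signalling gave 2 (16.7%) and 0 of 12 (Stat3 0.78 and Cbl 0.93 higher).

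Granule contents and secretion beyond the members gave 3 higher (7.89%) and 1 lower (2.63%) of 38, and proplatelet cytoskeleton genes 2 (6.25%) and 0 of 32, shares near those of all genes. Without WT replicate 1 they gave 1 and 1, and 1 and 0. Slc35d3, a dense granule gene, read 0.83 higher in KO cells (0.52 without KO replicate 3), and Clu, a granule chaperone used to mark platelet-primed stem cells, differed by −0.23 (0.22 without KO replicate 3). In Het cells the counts with an unadjusted p under 0.05 were 4 higher for the receptors, 3 for granule genes and 1 each for signalling genes, transcription factors and thrombopoietin signalling, with 0 lower in each list and 0 either way for the cytoskeleton; over all genes 3.12% were higher and 1.77% lower. As shares these were 19% of the receptors, 7.89% of granule genes, 2.94% of signalling genes, 5.26% of transcription factors and 8.33% of thrombopoietin signalling. The median KO minus WT differences were 0.36 for receptors, 0.25 for signalling, 0.41 for transcription factors, 0.28 for thrombopoietin signalling, 0.14 for granule genes and 0.08 for the cytoskeleton, beside 0.08 for the members and −0.08 over all genes measured.

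**Figure D5:**
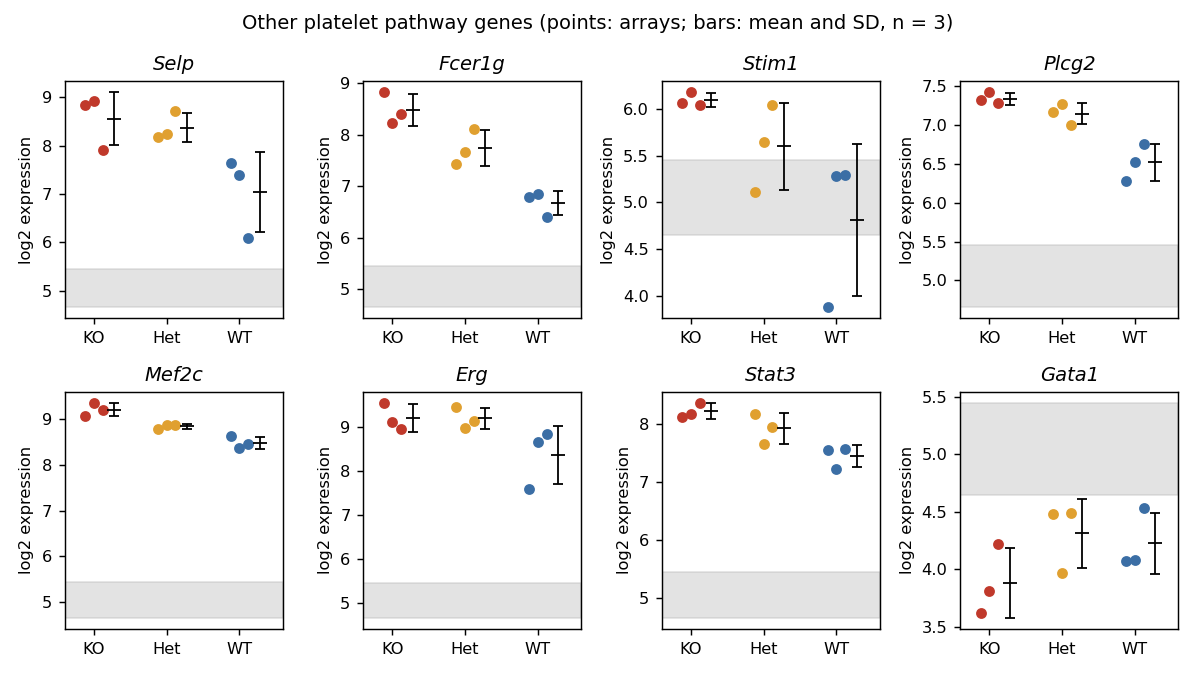
Log2 expression of 8 further genes of the pathway by genotype, with 1 point per array and the mean and SD of 3 arrays; grey marks the range of the background level and the vertical scales differ. Every KO array lies above every WT array for Selp, Fcer1g, Stim1, Plcg2, Mef2c, Erg and Stat3, while Gata1 lies below the band on all 9 arrays. Most of the 8 were named for a small p in their list, so this separation partly follows from the choice. Every KO array was higher for 6 of 25 receptors, 5 of 36 signalling genes, 5 of 19 transcription factors and 3 of 12 thrombopoietin signalling genes measured. The same held for 6 of 40 granule genes and 2 of 33 proplatelet cytoskeleton genes measured. Every KO array was lower for 1 granule gene and for 0 genes in each other list. Over all 22180 genes measured, 1141 were higher and 1744 lower in this way. Over all genes tested the shares were 6.51% and 7.32%.

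Markers of other cells were read beside these results, again against 5.4% of all genes higher and 2.81% lower in KO cells. Red cell genes, of the lineage closest to megakaryocytes, gave 0 higher and 1 lower of 22 in KO cells (Tspo2, −0.83, at background), with a median of −0.08. Endothelial genes, some of which HSCs and platelets also express, gave 4 higher and 0 lower of 13, Pecam1 (1.97) and Kdr (1.24, or 0.82 without KO replicate 1) among them. By sign alone 8 of the 13 read higher and 5 lower in KO cells. Every KO array lay above every WT array for 4 of them and below for 1 (6.51% and 7.32% of all genes tested). Their mean level was 5.19 to 5.45 on the KO, 4.84 to 5.12 on the Het and 4.50 to 5.05 on the WT arrays. Neutrophil genes gave 0 higher and 4 lower of 13 (1 lower without WT replicate 1). Among them S100a8 differed by −3.86, and by −4.84 to −2.62 over single arrays left out. The mean level of the neutrophil genes was 4.33 to 4.41 on the KO, 4.47 to 5.56 on the Het and 4.67 to 5.40 on the WT arrays. The counts were 0 and 0 of 8 for B cells, 1 and 1 of 10 for T and NK cells (Klrb1c 2.18, Nkg7 −1.75 or −1.15 without WT replicate 3), 1 and 0 of 12 for macrophages and 0 and 1 of 5 for mast cells and basophils (Cpa3 −0.87). By sign alone, Klrb1c was the 1 T and NK gene that read higher in KO cells, and 12 read lower. For B cell genes it was 0 higher and 11 lower, beside 8932 higher and 13214 lower over all genes measured. Of the macrophage genes 4 read higher and 8 lower in KO cells, with a median of −0.07; the 1 at an unadjusted p under 0.05, Cd68 (1.63), had KO and WT arrays that overlapped. Of these marker lists, B cell genes were above background on no array for 8 of 11, T and NK genes for 10 of 13, mast cell and basophil genes for 10 of 11 (Kit, a gate gene, being the other), macrophage genes for 7 of 12, neutrophil genes for 5 of 14 and endothelial genes for 5 of 13, beside 51.6% of all genes measured. The part that endothelial and neutrophil genes play in the differences of the members was not tested.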

How the data were processed

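Each of the 9 samples was 1 array, deposited by the authors as log2 values of probe sets. RMA is named in the submitters' processing notes, without a version or settings. RNA was amplified by a whole-transcript method for small inputs, biotin-labelled and hybridised to Affymetrix mouse gene arrays, per the labels' protocols. RMA compresses differences of dim transcripts, and strong amplification can add spread between arrays. Of 41345 probe sets 23521 had 1 symbol, 1814 several and 16010 were not listed; symbols were updated by gene identifier for 23328. Tests left out genes of the lowest means (25th percentile, log2 3.31) and kept 16636 of 22180 genes and 29 of 30 members read; Clec1b fell under it and Tubb1, at a mean of 3.36, lay just above it. A mean per genotype was fitted over all 9 arrays with limma 3.58.1 in R 4.3.3 (lmFit, eBayes; 6 residual and 4.26 prior degrees of freedom), with two-sided Benjamini-Hochberg adjustment over all genes tested. The number of arrays limits the precision: the median SE of KO minus WT was 0.298. The fit was tested on simulated data. Values per array are given for Vwf, Itga2b, Itgb3, Pf4 and Gp9, for members with an unadjusted p under 0.05 in any comparison or with separated KO and WT arrays; those of F2r and Gp6 were added after their values were seen. From each further list at most the 2 genes with the smallest p per direction, for KO minus WT or Het minus WT, are named, and Bcl11a, Selp, Slamf1, Gata1, Gata2, Fli1, Runx1, Clu and Meis1 always. Kit, Cd48, Flt3 and Xist serve as checks of the gate and of sex. Leaving out single arrays for the further lists, and for members without values per setting, was chosen after seeing the data. The members and the gene lists were chosen with earlier results of these data known. Same-numbered arrays of different genotypes did not all deviate together (correlations from −0.185 to 0.229).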

Additional observations from a re-analysis of the deposited data

How the results depend on the processing

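Precision is limited by 3 arrays per genotype. No member was called in any comparison under another filter, normalization, probe rule, array weighting, eBayes setting, sex or interquartile range as a term, fits of only the groups compared, or the replicate block (0 members called in each comparison with the replicate block); the numbers are shared labels only. When single arrays were left out, 0 to 1 members were called for KO minus WT and 0 in the other comparisons. The KO minus WT median of the members was −0.13 with the interquartile range as a term, against 0.078, and the median for the mean of Het and KO minus WT ran from −0.171 (without WT replicate 1) to 0.167 over single arrays left out. With the highest Y-linked reading of female arrays (3.32) as the background level, 26 members passed it on all arrays, against 16. Of 513 recomputed differences of 9 members, 493 kept sign and call, 1 was newly called (Ppbp) and 19 turned sign. The 9 were Vwf, Itga2b, Itgb3, Pf4 and Gp9, and members with an unadjusted p under 0.05 or separated KO and WT arrays. For Vwf, Ppbp, Zfpm1 and F2rl2 those arrays did not overlap, so leaving out 1 array could not turn the KO minus WT sign. The count of kept signs was thus partly fixed in advance. Itga2b turned to 0.199 (KO minus WT) and 0.104 (KO minus Het) with array weights, and to −0.041 (Het minus WT) with the interquartile range. Over single arrays left out, Itga2b ran from −0.35 to 0.40, −0.05 to 0.38 and −0.54 to 0.21 in these comparisons (KO minus WT, Het minus WT, KO minus Het), Itgb3 from −0.105 to 0.29 for KO minus WT, and for KO minus Het Gp9 ran from −0.873 to 0.027, Pf4 from −0.738 to 0.412 and Plek from −0.427 to 0.218. The cause of these turns was not tested.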
